A study of Homo sapiens with 12 samples.

Results

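The interaction of all-trans retinoic acid (ATRA) with induction of an shRNA against RIP140 was followed in all 12 of the 12 libraries of the series. They come from MOLM14, a human acute myeloid leukemia line of monocytic character with a KMT2A fusion, and form a layout with 3 biological replicates in each of 4 groups. All carry the shRIP140 construct, whose expression is switched on by doxycycline, and all were grown in serum free of tetracycline. The combined group received ATRA (1 µM for 48 h) together with doxycycline (DOX, 50 ng/mL, renewed every other day), the DOX group doxycycline alone, the ATRA group ATRA alone, and the untreated group neither. No cells without the shRNA, or with an shRNA against another target, were analysed here, so an effect of doxycycline itself and an effect of the knockdown cannot be told apart. Whether the line is 1 clone or a pool is not said in the labels. For each gene the interaction is the log2 change with ATRA in cells given DOX (combined over DOX) minus the log2 change with ATRA in cells without DOX (ATRA over untreated). A negative value therefore means a lower ATRA response, or a larger decrease, in cells given DOX.

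ATRA binds retinoic acid receptors, which sit with their RXR partners on target genes and exchange corepressors for coactivators when the ligand arrives. RIP140, encoded by NRIP1, is a coregulator that is recruited by ligand-bound nuclear receptors and in most settings represses their targets, and NRIP1 is itself known as a retinoid-responsive gene. In myeloid leukemia cells ATRA is known for pushing cells towards more mature monocytic or granulocytic expression programs. The same interaction value can arise in different ways, because a gene can start from another level before ATRA or reach another level with ATRA. Each called gene was therefore placed by its DOX effect with ATRA (combined over ATRA) and its DOX effect before ATRA (DOX over untreated).

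Library totals ranged over 9454825 to 16066674 counts in the combined group, 2685984 to 19358619 in the DOX group, 9512481 to 15490958 in the ATRA group and 10370231 to 18066027 in the untreated group. Levels are given in CPM, read counts relative to the library total after TMM scaling, where ± is the SD over the 3 libraries of a group. Each ± beside a log2 value is a standard error derived from its F statistic. Of the monocytic leukemia markers 13 of 13 were measured, and their summed level was 2271 to 2462 CPM in combined, 2109 to 2177 CPM in DOX, 2185 to 2373 CPM in ATRA and 1791 to 1940 CPM in untreated libraries. CEBPA was its largest part (means of 1034, 736, 897 and 618 CPM in the same order). The members did not move together, as LYZ averaged 94.0, 223, 124 and 205 CPM. In cells without DOX, ATRA raised 7 of the 13 and lowered 4 (15.7 and 13.2% of all genes tested). In cells given DOX it raised 5 and lowered 3 (10.7 and 8.24%). Of the markers of other cells, 5 of 16 lymphoid, 3 of 16 erythroid and megakaryocytic and 3 of 15 fibroblast, endothelial and epithelial genes were measured, while CD3E, CD2, EPCAM and COL3A1 had no count in any library. Summed lymphoid markers reached 127 to 138 CPM in combined, 169 to 211 CPM in DOX, 123 to 131 CPM in ATRA and 208 to 248 CPM in untreated libraries. Most of this sum came from NCAM1 (means of 62.2, 105, 58.6 and 133 CPM in the same order) and PAX5 (54.3, 55.7, 51.2 and 67.4 CPM). The T and B cell genes CD3D, CD8A and MS4A1 had few or no counts. Those of fibroblasts, endothelium and epithelium (PECAM1, KRT8 and KRT18 of the measured) reached 236 to 279 CPM in combined, 161 to 179 CPM in DOX, 189 to 201 CPM in ATRA and 107 to 123 CPM in untreated libraries. PECAM1 was the largest part (means of 206, 107, 158 and 65.5 CPM in the same order) and was higher with ATRA. KRT18 (27.98, 40.8, 20.8 and 30.5 CPM) and KRT8 (18.4, 23.2, 14.9 and 18.3 CPM) averaged lower with ATRA in both states. The part of these markers in the results was not tested. In bulk RNA, fewer cells of a type and less RNA per cell cannot be told apart. The DOX libraries varied more among themselves than the others, with a root mean square deviation from the group mean of 0.294 to 0.378 (log2) in DOX libraries against 0.185 to 0.255 in the other 9. Mitochondrial ribosomal RNA took 1.23 to 2.02% of counts in combined, 1.02 to 2.18% in DOX, 2.09 to 2.74% in ATRA and 2.54 to 4.60% in untreated libraries, so this share moved with DOX. With the share as a term in the fit, 42 genes had a called interaction, 33 of them shared with the 43 described here. The call was lost with this term for CCR2, CIITA, MMP2, CHST2, OPN3, RNASE2, INAVA, BCL11A, RPS27L and LILRA1.

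The target of the shRNA was checked ahead of the other genes. NRIP1 stood at 15.9, 20.9 and 19.95 CPM in combined libraries, 19.2, 14.99 and 15.7 CPM in DOX libraries, 38.4, 41.1 and 51.9 CPM in ATRA libraries and 59.7, 58.9 and 53.3 CPM in untreated libraries. Every library given DOX was lower than every library without it. In cells without DOX, ATRA lowered NRIP1 (log2 −0.39 ± 0.12, called), with every ATRA library below every untreated library. In cells given DOX its ATRA effect was 0.16 ± 0.14 and not called. The DOX effect was −1.22 ± 0.13 with ATRA and −1.77 ± 0.13 before ATRA on the log2 scale. Their difference, the interaction of NRIP1, was 0.55 ± 0.19 and missed the threshold (edgeR quasi-likelihood, Benjamini-Hochberg adjusted p = 0.276). It passed only without DOX replicate 1 (0.70, adjusted p = 0.0352), and its adjusted p ran from 0.0803 to 0.660 over the alternative fits on all 12 libraries.

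The interaction asks where the ATRA response of induced cells differed from that of uninduced cells. Of 16104 genes tested, 43 (0.267%) were called at an adjusted p under 0.05, 7 of them higher (0.0435%) and 36 lower (0.224%). The called genes had interactions between 0.61 and 2.67 in size (log2) and adjusted p-values between 0.0020 and 0.0451, and 1735 genes had an unadjusted p under 0.05. For scale, the ATRA response itself was called for 3054 genes (19.0%) in cells given DOX and for 4652 genes (28.9%) in cells without DOX. The count of 43 depended on single libraries. It was 747 without DOX replicate 1, with 414 higher and 333 lower, and 129 without combined replicate 1. It was 10 without ATRA replicate 3, 11, 16 and 16 without untreated replicates 1, 2 and 3, 21 without combined replicate 2 and 23 without ATRA replicate 1. The sign of every called gene was kept in all 903 values from the 21 alternative settings on the log2 scale. These settings reuse the libraries on which the genes were called, so a kept sign was favoured in advance. The call was kept by 9 genes without any single library, by 12 at equal depth, by 23 with scaling by library size alone, and by 4 (FAM43A, CD74, SAMHD1 and TXNIP) under all 21. Of the 9, HLA-DQB1, HERPUD1, OLMALINC and PTAFR lost it at equal depth. PTAFR and CHCHD7 lost it with untreated replicate 3 and DOX replicate 3 both left out.

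In most called genes ATRA moved expression the same way in both states but less far in cells given DOX. Of the 36 genes with a lower interaction, ATRA raised 35 in cells without DOX (15.7% of all genes tested were raised there). In cells given DOX, 24 of these were also raised (10.7% of all genes tested), 9 were not called, and 2 (CHCHD7 and RPS27L) were lowered (8.24% of all genes tested). The remaining gene, RNASE2, was lowered by ATRA in cells given DOX and not called in cells without. Of the 7 genes with a higher interaction, 5 were lowered by ATRA in cells without DOX (13.2% of all genes tested). Of these BCL2, BCL11A and S100A9 were also lowered in cells given DOX while OLMALINC and VANGL1 were not called there. WNT6 and INAVA were raised by ATRA only where DOX was given, in the sense that the call was made in that state and not in the other. The ATRA effect was larger in size with DOX than without in 4 of the 43 genes. The interaction is the difference between the ATRA effects in both states, from the same libraries. A called interaction therefore favours such counts, which describe it without testing it further.

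**Figure D1:**
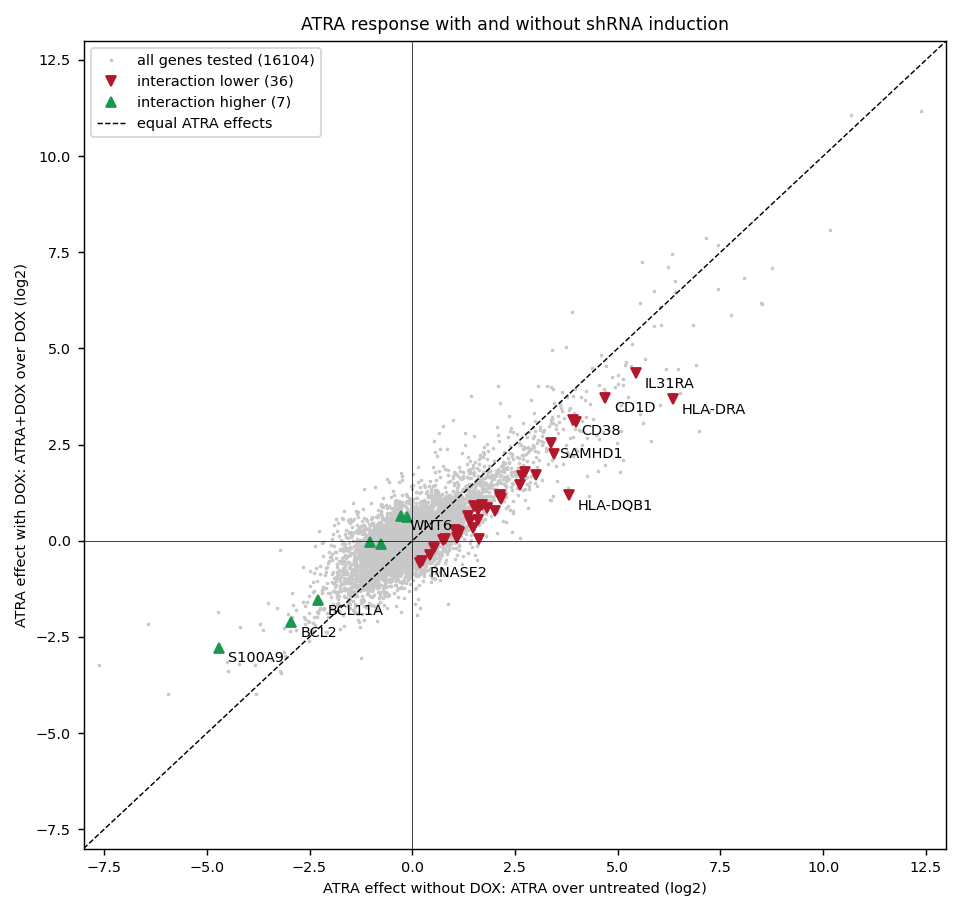
Log2 change with ATRA in cells given DOX (vertical axis, combined over DOX) against that in cells without DOX (horizontal axis, ATRA over untreated) for 16104 genes, with the 36 genes of lower interaction in red and the 7 of higher interaction in green. Genes on the dashed line respond equally in both states; called genes right of 0 lie below it and those left of 0 above it, for most of them nearer to no change in cells given DOX.

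The level with ATRA moved in 25 of the 43 genes, meaning that combined over ATRA was called and DOX over untreated was not: 20 of these were lower (2.54% of all genes tested were lower) and 5 higher (1.89%) with DOX. In 14 genes only the level before ATRA moved, 12 of them higher in DOX than in untreated cells (8.08% of all genes tested) and 2 lower (7.10%). In 4 genes (HLA-DQB1, TXNIP, CST3 and MS4A3) both levels moved, in opposite directions, and no called gene was left with neither. Across all genes tested, the DOX effect with ATRA was called for 713 (4.43%) and the DOX effect before ATRA for 2446 (15.2%). These contrasts use the same libraries as the interaction and describe it without testing it further. The DOX effect before ATRA was called for 77 genes with the share of mitochondrial ribosomal RNA as a term, for 659 without DOX replicate 2 and for 4326 without DOX replicate 1. The split also depended on DOX replicate 1, without which 612 of the 747 called genes fell in the class moved before ATRA and 88 in the class moved with ATRA. In the 20 genes lower with ATRA, the DOX effect with ATRA had a median of −0.88 (log2, range −2.00 to −0.47) and the DOX effect before ATRA a median of 0.14 (−0.20 to 0.67). In the 12 genes of lower interaction that moved before ATRA, the DOX effect with ATRA had a median of −0.21 (−0.40 to 0.07) and the DOX effect before ATRA a median of 0.70 (0.39 to 1.17).

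**Figure D2:**
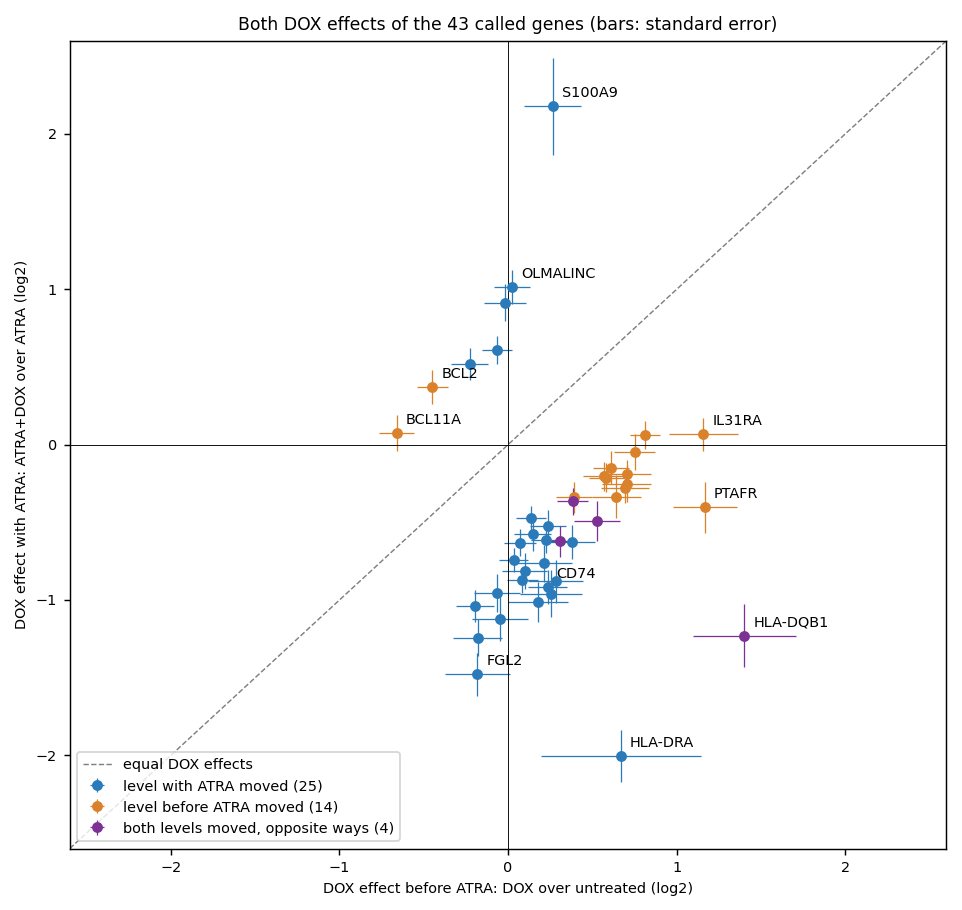
DOX effect with ATRA (vertical axis, combined over ATRA, log2) against DOX effect before ATRA (horizontal axis, DOX over untreated, log2) for the 43 called genes, with standard errors as bars and colors for the level that moved. The 25 genes whose level with ATRA moved spread along the vertical axis near a DOX effect of 0 before ATRA, and the 14 genes whose level before ATRA moved spread along the horizontal axis.

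Among the genes whose level with ATRA moved, several belong to MHC class II antigen presentation. Class II molecules present peptides to helper T cells, CD74 is the invariant chain that chaperones them, and CIITA is the coactivator that switches the class II genes on together with the RFX factors bound to their promoters. Of 14 measured class II genes, 4 were called lower (CD74, HLA-DQB1, CIITA and HLA-DRA; 0.224% of all genes tested) and none higher, and the median interaction was −1.41, beside −0.0083 over all genes tested. ATRA raised 8 of the 14 in cells given DOX (10.7% of all genes tested) and 11 in cells without DOX (15.7%). The DOX effect with ATRA was called lower for 10 of the 14 (2.54% of all genes tested), and the DOX effect before ATRA was called higher for 2 (8.08%). The list was chosen with earlier results of these data known.

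CD74 (chromosome 5, positions 150401637 to 150412929 of GRCh38) held 133, 102 and 109 CPM in combined, 76.7, 107 and 87.9 CPM in DOX, 234, 205 and 210.4 CPM in ATRA and 73.7, 80.5 and 78.01 CPM in untreated libraries. The ATRA libraries were above all others, while combined and DOX libraries overlapped. ATRA raised CD74 1.26-fold in cells given DOX and 2.80-fold in cells without DOX, an interaction of −1.15 ± 0.16 (edgeR quasi-likelihood, adjusted p = 0.00251). CIITA stood at 39.6, 35.4 and 37.9 CPM in combined, 29.6, 33.8 and 26.5 CPM in DOX, 57.1, 48.98 and 56.01 CPM in ATRA and 27.3, 26.997 and 24.3 CPM in untreated libraries. Its combined libraries lay between the DOX and the ATRA libraries without overlap, and the interaction was −0.76 ± 0.14 (adjusted p = 0.0223). The CIITA call was lost without combined replicate 2, DOX replicate 2, ATRA replicate 1 or 3 or any untreated library (−0.80 to −0.65), as it was with scaling by library size alone, at equal depth and with the mitochondrial ribosomal RNA term (−0.74, −0.69 and −0.66; adjusted p = 0.0566, 0.240 and 0.0624). CIITA shares exon sequence with DEXI on the opposite strand.

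HLA-DRA, the alpha chain of HLA-DR, had 12.5, 10.3 and 11.1 CPM in combined and 43.7, 44.3 and 48.6 CPM in ATRA libraries. Before ATRA it was close to the limit of detection: 0.318, 1.43 and 0 CPM in DOX libraries, where 4, 26 and 0 counts were found, against 0.676, 0.429 and 0.552 CPM in untreated libraries. At the depth of DOX replicate 3, a count of 0 allows up to 1.15 CPM (3 counts). The level with ATRA was 24.9% of that without DOX (log2 −2.005 ± 0.17), whereas the interaction, −2.67 ± 0.52 (edgeR quasi-likelihood, adjusted p = 0.0245), also rests on the few counts before ATRA. Without DOX replicate 2 it was −0.97 (adjusted p = 0.873), and it also lost the call without ATRA replicate 1 or 3 or any untreated library (−2.81 to −2.54). HLA-DQB1, a beta chain, was the member in which both levels moved: 6.19, 6.58 and 8.02 CPM in combined, 1.99, 4.12 and 1.92 CPM in DOX, 16.9, 16.7 and 14.7 CPM in ATRA and 0.773, 1.11 and 1.38 CPM in untreated libraries. DOX lowered it with ATRA (−1.23 ± 0.20) and raised it before ATRA (1.40 ± 0.31), which gave the interaction of −2.63 ± 0.36 (adjusted p = 0.00251), kept without any single library (−2.91 to −2.02). Some HLA genes have near-identical copies, and HLA-DQB1 shares exons with its antisense gene HLA-DQB1-AS1. The counts of such genes are uncertain in the share each received. HLA-DRA shares exons with no other gene.

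The remaining 10 class II genes did not pass the threshold. Their interactions ran from −3.26 (HLA-DQA1) to 0.20 (RFXAP). Those of HLA-DPA1, HLA-DRB1, HLA-DPB1 and the peptide exchange chain HLA-DMB lay between −3.23 and −1.68, with standard errors of 0.79 to 1.04. Like HLA-DRA, these genes had few counts before ATRA. They summed to between 4 and 14 over the 3 DOX libraries and between 4 and 10 over the 3 untreated libraries. Most of the DOX counts came from DOX replicate 2. In DOX replicates 1, 2 and 3 they were 2, 8 and 0 for HLA-DPA1 and 0, 14 and 0 for HLA-DRB1. For both HLA-DPB1 and HLA-DMB they were 1, 3 and 0. The interactions of these genes, and the list median of −1.41 that they enter, therefore rest in part on that library. HLA-DOB stood at 0.01 ± 0.38 and HLA-DMA at −0.35 ± 0.30. They had more counts before ATRA, 152 and 141 summed over the DOX libraries and 238 and 229 over the untreated libraries. The interactions of the RFX subunits stood near 0 (RFX5 −0.05 ± 0.11, RFXANK −0.16 ± 0.12, RFXAP 0.20 ± 0.20).

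**Figure D3:**
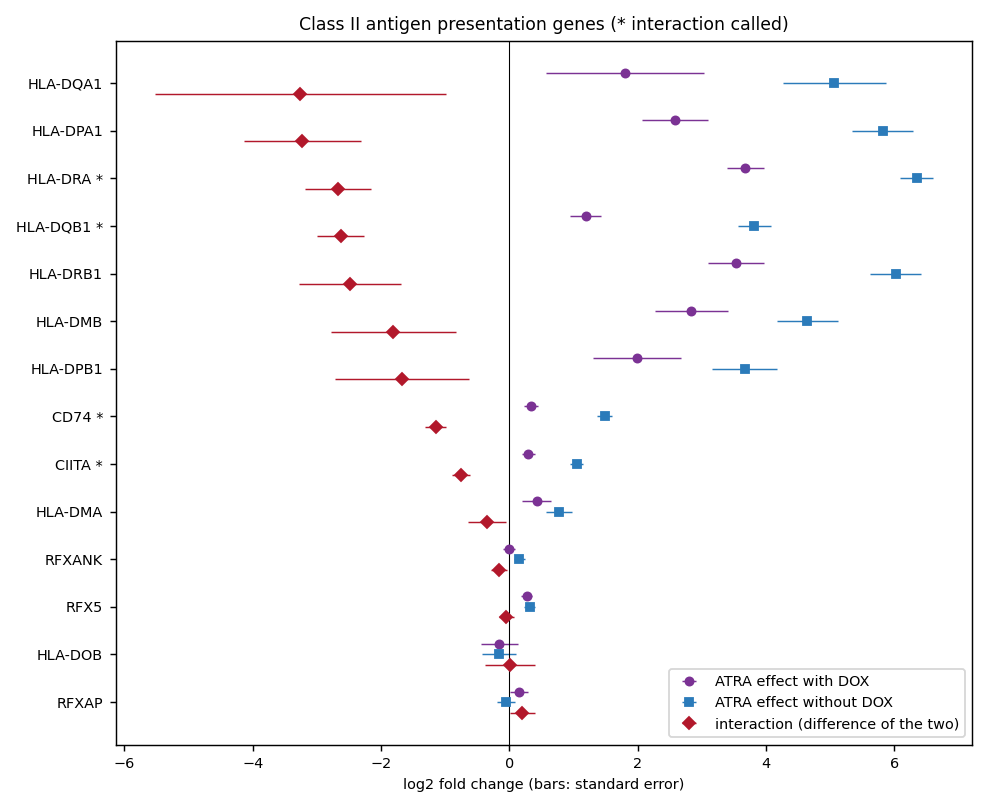
Log2 values of 14 measured class II genes with standard errors: the ATRA effect in cells given DOX, the ATRA effect in cells without DOX, and the interaction, with an asterisk for a called interaction. The ATRA effect with DOX lies left of that without DOX for the classical chains, CD74 and CIITA, and the interactions of the RFX subunits lie near 0.

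The promoters of these genes are shown because class II genes are known to share a promoter module, an X box bound by RFX and a Y box bound by NF-Y. Promoters of 250 bases before to 50 after the start were taken from RefSeq (GRCh38.p14), which held 36 of the 43 called genes and 12 of the 14 class II genes; HLA-DRA and CIITA had no entry. An X box consensus of 14 letters, 4 of them free, was searched on both strands and found in 0.0627% of 35116 promoters, and the Y box core ATTGG, also on both strands, in 34.6%. A Y core 10 to 30 bases after an X box in the same orientation was found in 3 of 35116 promoters, among them those of HLA-DQB1 and HLA-DMA. Of the class II genes, 3 held the X box (HLA-DQB1, HLA-DMB and HLA-DMA); of the 36 called genes with a promoter, only HLA-DQB1 did. HLA-DMA, printed for this match, is not among the called genes (−0.35 ± 0.30, edgeR quasi-likelihood, adjusted p = 0.717). The promoters lie at chr5:150412861-150413160 (CD74), chr6:32666608-32666907 (HLA-DQB1) and chr6:32953048-32953347 (HLA-DMA), all read on the minus strand, 5′ to 3′. Capitals mark the X box with the Y core after it in the HLA genes, and in CD74 the Y core read from the other strand.
CD74: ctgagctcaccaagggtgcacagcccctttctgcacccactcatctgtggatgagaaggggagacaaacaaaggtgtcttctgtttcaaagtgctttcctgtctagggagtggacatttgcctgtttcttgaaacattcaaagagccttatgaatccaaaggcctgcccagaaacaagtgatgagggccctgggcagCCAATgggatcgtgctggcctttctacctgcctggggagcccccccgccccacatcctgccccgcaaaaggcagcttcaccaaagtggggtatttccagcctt
HLA-DQB1: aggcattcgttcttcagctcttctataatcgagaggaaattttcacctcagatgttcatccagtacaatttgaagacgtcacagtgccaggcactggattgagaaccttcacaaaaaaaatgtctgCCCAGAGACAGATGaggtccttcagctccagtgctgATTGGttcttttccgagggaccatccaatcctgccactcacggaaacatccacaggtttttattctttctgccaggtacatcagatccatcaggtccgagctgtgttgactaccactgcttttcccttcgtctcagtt
HLA-DMA: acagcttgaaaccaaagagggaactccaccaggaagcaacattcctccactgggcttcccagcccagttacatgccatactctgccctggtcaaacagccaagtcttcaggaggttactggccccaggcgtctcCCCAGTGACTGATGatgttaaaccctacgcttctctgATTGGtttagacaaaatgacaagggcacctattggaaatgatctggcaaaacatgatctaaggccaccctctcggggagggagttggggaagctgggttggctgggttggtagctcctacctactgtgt
A match describes these letters only, and a promoter without one says nothing of the factor.

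FAM43A (chromosome 3, positions 194686544 to 194689037) had the smallest p of all. It stood at 59.3, 65.02 and 63.2 CPM in combined, 33.03, 36.8 and 32.3 CPM in DOX, 117, 114 and 112 CPM in ATRA and 32.9, 34.5 and 30.3 CPM in untreated libraries. DOX and untreated libraries overlapped, and combined libraries lay between these and the ATRA libraries: the ATRA response was 1.81-fold with DOX and 3.52-fold without. The interaction of FAM43A was −0.96 ± 0.12 (edgeR quasi-likelihood, adjusted p = 0.002). HERPUD1, an endoplasmic reticulum membrane protein of protein degradation, followed the same course, with 92.5, 84.1 and 89.9 CPM in combined, 46.6, 47.1 and 44.9 CPM in DOX, 142, 144 and 160.02 CPM in ATRA and 44.7, 46.9 and 44.7 CPM in untreated libraries. Its level before ATRA overlapped between DOX and untreated libraries, and its interaction was −0.77 ± 0.11 (adjusted p = 0.00386). SAMHD1, the hydrolase that depletes deoxynucleotides, was the most abundant of the 20 genes lower with ATRA. It rose 5.81-fold with ATRA in cells given DOX and 10.4-fold in cells without DOX, with 710.5, 703 and 792 CPM in combined, 121, 129 and 129.8 CPM in DOX, 1140, 1054 and 1179 CPM in ATRA and 109.9, 102 and 112 CPM in untreated libraries. The interaction of SAMHD1 was −0.84 ± 0.12 (adjusted p = 0.00386). It shares exon sequence with TLDC2. FAM43A, HERPUD1 and SAMHD1 kept their calls without any single library, with interactions of −0.997 to −0.885 for FAM43A, −0.80 to −0.72 for HERPUD1 and −0.90 to −0.79 for SAMHD1 over the 12 omissions.

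**Figure D4:**
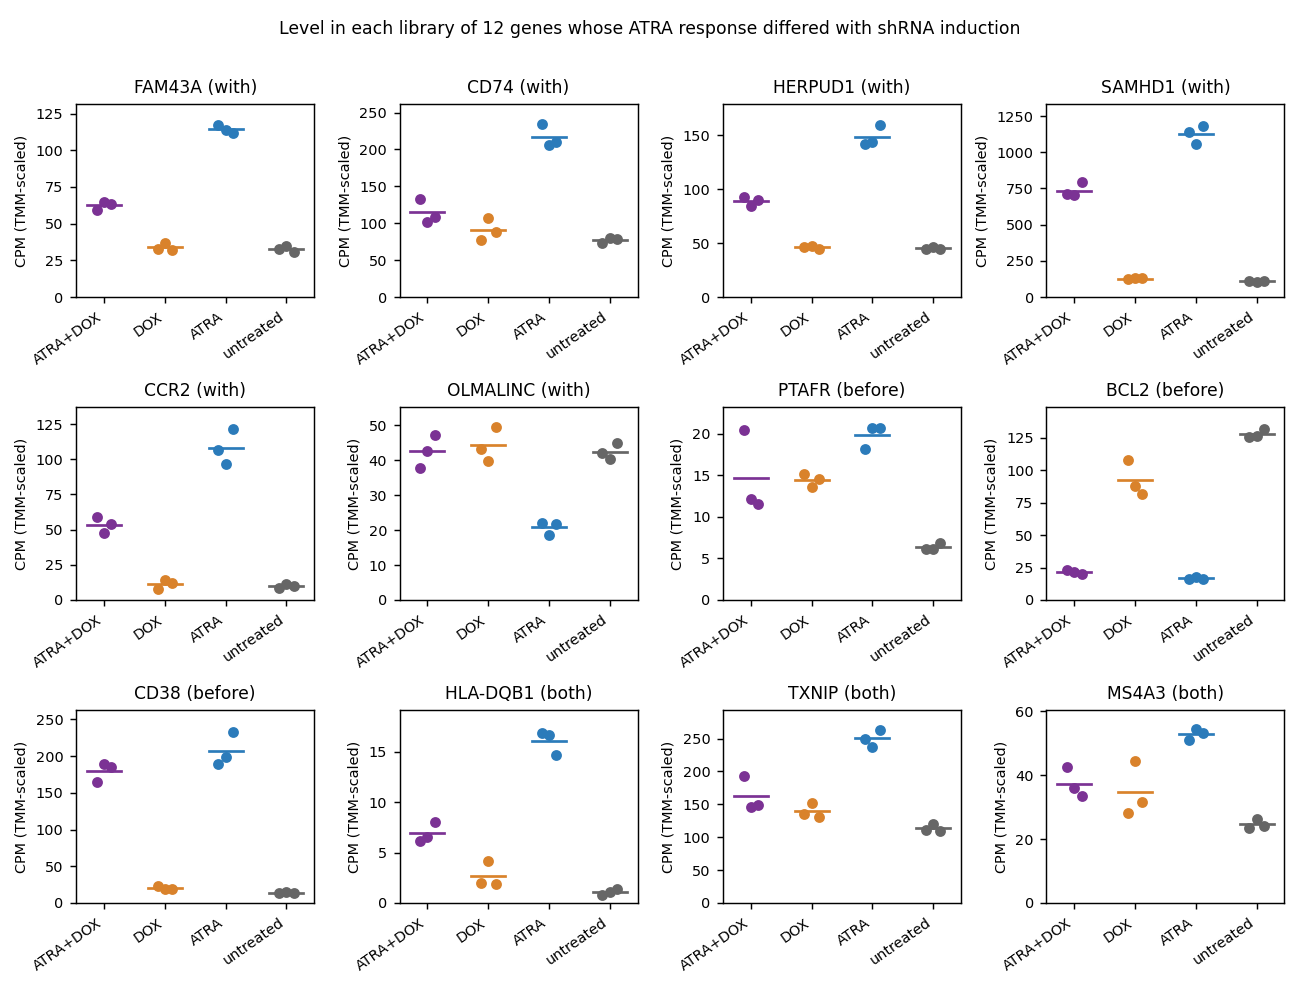
Level of 12 called genes in each library (points, TMM-scaled CPM, linear axes from 0) with the group mean (line) for combined, DOX, ATRA and untreated cells, 3 libraries each; with, before and both name the level that moved. FAM43A, CD74, HERPUD1, SAMHD1 and CCR2 differ between combined and ATRA libraries, OLMALINC falls in the ATRA libraries alone, and PTAFR, BCL2 and CD38 differ between DOX and untreated libraries.

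Receptors and surface proteins made up a further group whose level with ATRA was lower. CCR2, the monocyte receptor for the chemokine CCL2, had 58.7, 47.9 and 53.996 CPM in combined, 7.80, 13.9 and 12.3 CPM in DOX, 107, 96.9 and 121 CPM in ATRA and 8.70, 11.3 and 9.78 CPM in untreated libraries, and the combined libraries were all below the ATRA libraries. Its interaction was −1.19 ± 0.22 (edgeR quasi-likelihood, adjusted p = 0.0169). IL7R, the alpha chain of the IL7 receptor, averaged 12.3 ± 1.81 CPM in combined, 8.01 ± 2.08 CPM in DOX, 27.1 ± 3.37 CPM in ATRA and 8.83 ± 0.670 CPM in untreated libraries (SD, n = 3 each), with an interaction of −1.08 ± 0.22 (adjusted p = 0.0339). NECTIN1, a cell adhesion molecule, averaged 22.2 ± 1.29 CPM in combined, 10.1 ± 0.225 CPM in DOX, 34.2 ± 3.09 CPM in ATRA and 7.87 ± 0.937 CPM in untreated libraries. The interaction of NECTIN1 was −1.005 ± 0.17 (adjusted p = 0.0143). For MS4A6A, a membrane protein of monocytes, the means were 58.1 ± 11.3, 19.9 ± 5.95, 108 ± 3.89 and 17.5 ± 2.02 CPM in combined, DOX, ATRA and untreated libraries. The interaction of MS4A6A was −1.16 ± 0.21 (adjusted p = 0.0169). In all these genes DOX and untreated libraries were not called different. The calls were less firm than that of CD74. NECTIN1 lost it without ATRA replicate 3 or untreated replicate 3 (−0.95 to −0.90), MS4A6A and CCR2 without combined replicate 2, DOX replicate 2, ATRA replicate 3 or untreated replicate 1 or 3 (−1.14 to −0.85 and −1.18 to −0.84), and IL7R without combined replicate 2 or 3, ATRA replicate 1 or 3 or any untreated library (−1.14 to −0.99).

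Secreted proteins, enzymes and regulators completed the class. FGL2, a fibrinogen-like protein with prothrombinase activity, had the largest decrease of the level with ATRA after HLA-DRA: 27.4, 17.7 and 20.3 CPM in combined, 7.56, 5.87 and 6.91 CPM in DOX, 56.4, 59.1 and 68.9 CPM in ATRA and 6.18, 8.999 and 7.46 CPM in untreated libraries. DOX left 35.9% of its level with ATRA, and the interaction was −1.30 ± 0.24 (edgeR quasi-likelihood, adjusted p = 0.0169). KCTD12, an auxiliary subunit of GABA-B receptors, averaged 37.4 ± 3.48 CPM in combined and 88.3 ± 7.23 CPM in ATRA libraries, beside 17.6 ± 1.11 CPM in DOX and 19.99 ± 4.66 CPM in untreated libraries. The interaction of KCTD12 was −1.06 ± 0.19 (adjusted p = 0.0148). CHST2, a carbohydrate sulfotransferase, averaged 14.01 ± 2.77, 7.35 ± 2.19, 27.2 ± 3.29 and 6.78 ± 0.229 CPM in combined, DOX, ATRA and untreated libraries. The interaction of CHST2 was −1.22 ± 0.24 (adjusted p = 0.0268). The call was lost for FGL2 without ATRA replicate 3 or untreated replicate 1 or 3 (−1.29 to −1.20), for KCTD12 without ATRA replicate 3 or untreated replicate 2 (−1.05 to −0.99), and for CHST2 without combined replicate 2, DOX replicate 2 or any ATRA or untreated library (−1.27 to −1.02). Outside the rule for named genes, and listed to complete the class, were the calcium-dependent transcription factor NFATC1 (−0.70), the mitochondrial aldehyde dehydrogenase ALDH2 (−0.84), the gelatinase MMP2 (−0.91), the hypoxia-inducible factor EPAS1 (−0.61), the phospholipid transporter ATP10A (−0.89), the heparan sulfotransferase HS6ST1 (−0.72) and the leukocyte receptor LILRA1 (−0.97), with adjusted p-values of 0.0169 to 0.0451. Each of these lost its call without 6 to 9 of the 12 libraries. LILRA1 has close paralogs, and ALDH2, MMP2 and CHST2 on the same strand and NECTIN1 on the opposite strand overlap exons of other genes. In all 20 genes of the class the combined libraries lay below all ATRA libraries (13.4% of all genes tested), and in the 5 higher genes of the class above them (13.1%), as the rule of the class favours. The split between the classes goes by calls, and in 7 of the 14 genes placed by their level before ATRA the combined libraries also lay off the ATRA libraries, 6 below and 1 above. In the class moved with ATRA, DOX libraries lay above all untreated libraries in SAMHD1, NECTIN1 and NFATC1 and below them in INAVA. The DOX effects of these genes before ATRA were not called.

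The 5 genes whose level with ATRA was higher in cells given DOX were OLMALINC, VANGL1, WNT6, S100A9 and INAVA. OLMALINC, a long noncoding RNA, had 37.8, 42.5 and 47.2 CPM in combined, 43.3, 39.9 and 49.5 CPM in DOX, 22.1, 18.6 and 21.8 CPM in ATRA and 42.1, 40.5 and 44.8 CPM in untreated libraries. Only the ATRA libraries were lower, with no overlap with any other group, so that ATRA changed it by −0.03 ± 0.11 (log2) in cells given DOX and by −1.02 ± 0.11 in cells without. The interaction of OLMALINC was 0.99 ± 0.15 (edgeR quasi-likelihood, adjusted p = 0.00472). VANGL1, a membrane protein of planar cell polarity, showed the same layout at 45.9, 45.6 and 44.9 CPM in combined, 48.6, 48.9 and 44.9 CPM in DOX, 27.2, 31.8 and 30.8 CPM in ATRA and 48.7, 49.9 and 51.7 CPM in untreated libraries. The interaction of VANGL1 was 0.67 ± 0.12 (adjusted p = 0.0169).

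WNT6, a secreted Wnt ligand, and INAVA, an adaptor of innate immune signalling, rose with ATRA in cells given DOX and were not called in cells without DOX. WNT6 had 25.3, 24.1 and 27.6 CPM in combined, 16.2, 16.7 and 15.7 CPM in DOX, 15.6, 13.5 and 11.4 CPM in ATRA and 15.6, 17.3 and 16.7 CPM in untreated libraries, and all combined libraries were above all others. The interaction of WNT6 was 0.93 ± 0.17 (edgeR quasi-likelihood, adjusted p = 0.0169). INAVA averaged 34.7 ± 2.52 CPM in combined, 22.8 ± 2.43 CPM in DOX, 24.2 ± 1.85 CPM in ATRA and 26.6 ± 1.04 CPM in untreated libraries (SD, n = 3 each). The interaction of INAVA was 0.75 ± 0.15 (adjusted p = 0.032). S100A9, a subunit of calprotectin, had 5.29, 3.93 and 3.47 CPM in combined, 32.5, 21.8 and 40.7 CPM in DOX, 1.21, 0.850 and 0.675 CPM in ATRA and 25.4, 25.8 and 23.8 CPM in untreated libraries. ATRA lowered it in both states, less steeply in cells given DOX on the log2 scale. The interaction of S100A9 was 1.91 ± 0.36 (adjusted p = 0.0212). On the linear scale the sign turns, because the mean fell by 27.4 CPM in cells given DOX and by 24.1 CPM in cells without (difference −3.35 CPM). Of the 5 genes, OLMALINC kept its call without any single library. The others lost it without ATRA replicate 3 or any untreated library, with S100A9 at 1.75 to 1.95, WNT6 at 0.83 to 0.96, VANGL1 at 0.61 to 0.70 and INAVA at 0.64 to 0.80 over all the omissions that cost the call; these also included ATRA replicate 2 for S100A9, combined replicate 2 and ATRA replicate 1 for VANGL1, and combined replicate 2, either of DOX replicates 2 and 3 and either of ATRA replicates 1 and 2 for INAVA.

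Where the level before ATRA moved, the 12 genes of lower interaction were higher in DOX than in untreated cells, and their levels with ATRA were closer together. PTAFR, the receptor for platelet-activating factor, had 20.4, 12.1 and 11.5 CPM in combined, 15.1, 13.6 and 14.6 CPM in DOX, 18.2, 20.7 and 20.6 CPM in ATRA and 6.09, 6.17 and 6.80 CPM in untreated libraries. Its DOX libraries were at 2.24 times the untreated level, ATRA changed it by 0.06 ± 0.17 (log2) in cells given DOX and by 1.63 ± 0.18 in cells without, and the interaction was −1.57 ± 0.25 (edgeR quasi-likelihood, adjusted p = 0.00739). Combined replicate 1 lay at the ATRA level and the other combined libraries below it, and the call was kept without any single library (−1.90 to −1.44). It was lost at equal depth and with untreated replicate 3 and DOX replicate 3 both left out (adjusted p up to 0.256).

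Several genes of this class respond strongly to ATRA in both states. CD1D, which presents lipids to natural killer T cells, had 139, 153 and 159 CPM in combined, 10.9, 12.8 and 8.06 CPM in DOX, 180.3, 177 and 191 CPM in ATRA and 5.80, 6.86 and 8.07 CPM in untreated libraries. The interaction of CD1D was −0.98 ± 0.17 (edgeR quasi-likelihood, adjusted p = 0.0148). ITGA6, a laminin-binding integrin chain, had 77.7, 83.2 and 77.9 CPM in combined, 9.95, 9.11 and 8.45 CPM in DOX, 87.3, 80.9 and 104 CPM in ATRA and 5.51, 5.91 and 5.75 CPM in untreated libraries. The interaction of ITGA6 was −0.89 ± 0.17 (adjusted p = 0.0169). CD38, an NAD-consuming surface enzyme long known as a retinoid target, rose 8.75-fold in cells given DOX and 14.9-fold in cells without. Its levels were 165, 189.5 and 186 CPM in combined, 23.4, 18.7 and 18.8 CPM in DOX, 189.7, 199 and 232 CPM in ATRA and 13.04, 15.2 and 13.4 CPM in untreated libraries, so DOX and untreated libraries did not overlap, and the combined libraries reached up to the lowest ATRA library. The interaction of CD38 was −0.77 ± 0.16 (adjusted p = 0.032). IL31RA, a chain of the IL31 receptor, had 126, 109 and 114 CPM in combined, 5.81, 5.82 and 4.61 CPM in DOX, 106, 99.9 and 128 CPM in ATRA and 1.64, 2.49 and 3.15 CPM in untreated libraries. The interaction of IL31RA was −1.09 ± 0.23 (adjusted p = 0.0448). On the linear scale IL31RA gained slightly more with DOX (difference 2.07 CPM), opposite in sign to the log2 value.

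The same course was seen at smaller ATRA responses. CHI3L1, a secreted chitinase-like protein, averaged 721 ± 133 CPM in combined, 227 ± 56.6 CPM in DOX, 909 ± 64.3 CPM in ATRA and 144 ± 6.17 CPM in untreated libraries (SD, n = 3 each). The interaction of CHI3L1 was −0.98 ± 0.20 (edgeR quasi-likelihood, adjusted p = 0.0426). BTG2, an antiproliferative p53 target, averaged 41.5 ± 4.17, 18.02 ± 4.36, 49.5 ± 2.51 and 11.2 ± 0.287 CPM in combined, DOX, ATRA and untreated libraries. The interaction of BTG2 was −0.95 ± 0.19 (adjusted p = 0.0275). IL10RB-DT, a noncoding transcript divergent from IL10RB whose exons overlap IFNAR2, averaged 41.5 ± 4.36, 23.9 ± 0.827, 48.4 ± 0.701 and 15.9 ± 0.993 CPM in the same order. The interaction of IL10RB-DT was −0.80 ± 0.14 (adjusted p = 0.0148). The opsin gene OPN3, outside the rule for named genes and sharing exons with CHML and KMO, had an interaction of −0.73 ± 0.15 (adjusted p = 0.0314). Leaving out single libraries cost CD1D its call without DOX replicate 2, ATRA replicate 3 or untreated replicate 1 or 2 (−0.95 to −0.82), IL10RB-DT without ATRA replicate 3 or untreated replicate 1 or 2 (−0.79 to −0.76) and ITGA6 without ATRA replicate 3 or any untreated library (−0.91 to −0.79). CD38, IL31RA, CHI3L1, BTG2 and OPN3 lost theirs without 7 to 9 of the 12 libraries, ATRA replicate 3 and untreated replicates 1 and 2 among them for each.

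In 3 genes of this class ATRA was called as lowering the gene in cells given DOX. CHCHD7, encoding a CHCH-domain protein, had 376, 368 and 377 CPM in combined, 485, 577 and 542 CPM in DOX, 373, 378 and 324 CPM in ATRA and 317, 304 and 291 CPM in untreated libraries. The DOX libraries were above all others, and ATRA changed CHCHD7 by −0.51 ± 0.09 (log2) in cells given DOX and by 0.24 ± 0.09 in cells without. The interaction of CHCHD7 was −0.75 ± 0.12 (edgeR quasi-likelihood, adjusted p = 0.0103). RPS27L, a ribosomal protein paralog known as a p53 target and outside the rule for named genes, had 75.7, 67.99 and 68.2 CPM in combined, 71.8, 112 and 89.1 CPM in DOX, 73.1, 73.8 and 72.3 CPM in ATRA and 58.1, 56.5 and 49.3 CPM in untreated libraries, with ATRA effects of −0.37 ± 0.12 with DOX and 0.42 ± 0.12 without. The interaction of RPS27L was −0.80 ± 0.17 (adjusted p = 0.0448). DOX replicate 1 was at the combined level and the other DOX libraries were above it. RNASE2, the eosinophil-derived neurotoxin, had 274, 249.7 and 271 CPM in combined, 309.6, 463 and 403 CPM in DOX, 285, 307 and 289.9 CPM in ATRA and 258, 267 and 245 CPM in untreated libraries, with ATRA effects of −0.56 ± 0.11 with DOX (called) and 0.19 ± 0.11 without (not called). CHCHD7 kept its interaction call without any single library; RPS27L lost it without 10 of the 12 (−0.85 to −0.57) and RNASE2 without 9 (−0.78 to −0.61), in both cases without combined replicate 2, DOX replicate 2 or 3 or any ATRA or untreated library, and for RPS27L also without combined replicate 3.

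BCL2 and BCL11A were the genes of higher interaction whose level before ATRA moved. BCL2, the antiapoptotic mitochondrial protein, had 22.8, 21.4 and 20.2 CPM in combined, 108, 87.8 and 81.8 CPM in DOX, 15.9, 18.1 and 16.2 CPM in ATRA and 126, 126 and 132 CPM in untreated libraries. DOX libraries were all below untreated libraries (log2 −0.45 ± 0.09), the DOX effect with ATRA was 0.37 ± 0.11 and not called, and the interaction was 0.82 ± 0.15 (edgeR quasi-likelihood, adjusted p = 0.0148). BCL11A, a zinc finger repressor of progenitor cells, had 27.7, 22.6 and 21.9 CPM in combined, 72.4, 70.7 and 68.7 CPM in DOX, 22.1, 23.7 and 23.3 CPM in ATRA and 104, 101 and 131 CPM in untreated libraries. The interaction of BCL11A was 0.74 ± 0.16 (adjusted p = 0.0448). The BCL2 call was lost without ATRA replicate 1 or 3 or untreated replicate 1 (0.79 to 0.83), and that of BCL11A without every library but combined replicate 3 and DOX replicate 1 (0.60 to 0.81).

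Besides HLA-DQB1, 3 genes had both levels moved in opposite directions. TXNIP, a thioredoxin-binding protein known to follow glucose supply, had 193, 146 and 148 CPM in combined, 136, 152 and 130.2 CPM in DOX, 249.8, 238 and 264 CPM in ATRA and 111, 120.4 and 109 CPM in untreated libraries. The DOX effect was −0.62 ± 0.10 with ATRA and 0.31 ± 0.10 before ATRA, and the interaction −0.93 ± 0.14 (edgeR quasi-likelihood, adjusted p = 0.00451) kept its call without any single library. CST3, the secreted protease inhibitor cystatin C, had 128, 127 and 136 CPM in combined, 114, 129.7 and 136 CPM in DOX, 177, 171 and 156 CPM in ATRA and 87.4, 107 and 95.02 CPM in untreated libraries (interaction −0.75 ± 0.13, adjusted p = 0.0135; −0.69 and not called without untreated replicate 1). MS4A3, a membrane protein of granulocyte and monocyte precursors, averaged 37.4 ± 4.64 CPM in combined, 34.6 ± 8.58 CPM in DOX, 52.8 ± 1.73 CPM in ATRA and 24.6 ± 1.48 CPM in untreated libraries. The interaction of MS4A3 was −1.02 ± 0.19 (adjusted p = 0.0169). Without combined replicate 2, ATRA replicate 3 or untreated replicate 1 or 3 the call of MS4A3 was lost (−1.01 to −0.999). In TXNIP, CST3 and MS4A3 combined and DOX libraries overlapped, and ATRA was called only in cells without DOX.

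Of 26 gene lists, 8 held a called gene, the class II list among them. The azurophil granule list had 2 of 16 genes called lower (0.224% of all genes tested). Its median interaction was −0.46, beside −0.0083 over all genes tested. Azurophil granules hold enzymes stored by promyelocytes, but the called genes were MS4A3, a membrane protein, and RNASE2, the eosinophil-derived neurotoxin. DOX raised 1 of the 16 with ATRA (1.89% of all genes tested) and 11 before ATRA (8.08%). BPI, the bactericidal permeability-increasing protein, missed the threshold (−0.94 ± 0.21, edgeR quasi-likelihood, adjusted p = 0.0646), with 122 CPM in combined, 8.25 CPM in DOX, 104 CPM in ATRA and 3.48 CPM in untreated cells on average. Of 20 retinoid response genes, 1 was called lower (CD38, beside 0.224% of all genes tested) and none higher (0.0435%). ATRA raised 11 of them with DOX (10.7% of all genes tested) and 14 without (15.7%). Their median interaction was −0.15. RARB, the retinoic acid receptor beta gene, had a positive interaction of 2.15 ± 0.50 that missed the threshold (adjusted p = 0.0749), at 4.80, 0.580, 1.64 and 1.01 CPM on average in combined, DOX, ATRA and untreated cells. The retinol dehydrogenase gene DHRS9 had an interaction of −0.70 ± 0.16 (adjusted p = 0.0746), also not called. Besides these and the class II list, each list with a call held a single one. Called higher (0.0435% of all genes tested) were S100A9 of 19 mature myeloid genes, BCL11A of 23 HOX, KMT2A target and stem cell genes, and BCL2 of 29 apoptosis and survival genes. Called lower (0.224%) were HERPUD1 of 27 integrated stress and amino acid genes and BTG2 of 25 p53 targets. RPS27L, described above as a p53 target and also called lower, was not in that list. A single call describes that gene and not its list.

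Some lists without a called gene still had medians away from that of all genes tested. Of 21 replication histone genes, 20 had a positive interaction and none was called; the median was 1.19. Their DOX effect was called lower for none with ATRA (median −0.14; 2.54% of all genes tested) and for 19 before ATRA (median −1.27; 7.10%). ATRA lowered none (8.24% of all genes tested) and raised 3 (10.7%) of them in cells given DOX, and lowered 16 (13.2%) and raised 1 (15.7%) in cells without. H1-4, a linker histone gene, showed the smallest p of the list with 1.25 ± 0.31 (edgeR quasi-likelihood, adjusted p = 0.0882). Histone messages mostly lack poly(A) tails, so their level also depends on how RNA was selected, which is not given in the sources used here. Nuclear-encoded respiratory chain genes had a median of −0.27, with 39 of 43 negative: DOX raised 1 with ATRA (median 0.11; 1.89% of all genes tested) and 25 before ATRA (median 0.41; 8.08%). All 13 mitochondrially encoded messages were negative with a median of −0.46, and DOX lowered 5 of them with ATRA (2.54% of all genes tested) and none before (7.10%). Interferon-stimulated genes (46 measured, median −0.18) and MHC class I genes (18 measured, median −0.22) had no called gene, and HLA-B was the class I gene of smallest p (−0.59 ± 0.15, adjusted p = 0.11). The other lists without a called gene, among them cell cycle, ribosomal protein, NF-kB, fatty acid oxidation, sterol synthesis and nuclear receptor coregulator genes, had medians between −0.16 and 0.33. The share of mitochondrial ribosomal RNA also differed between the groups, and its part in these medians was not tested.

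**Figure D5:**
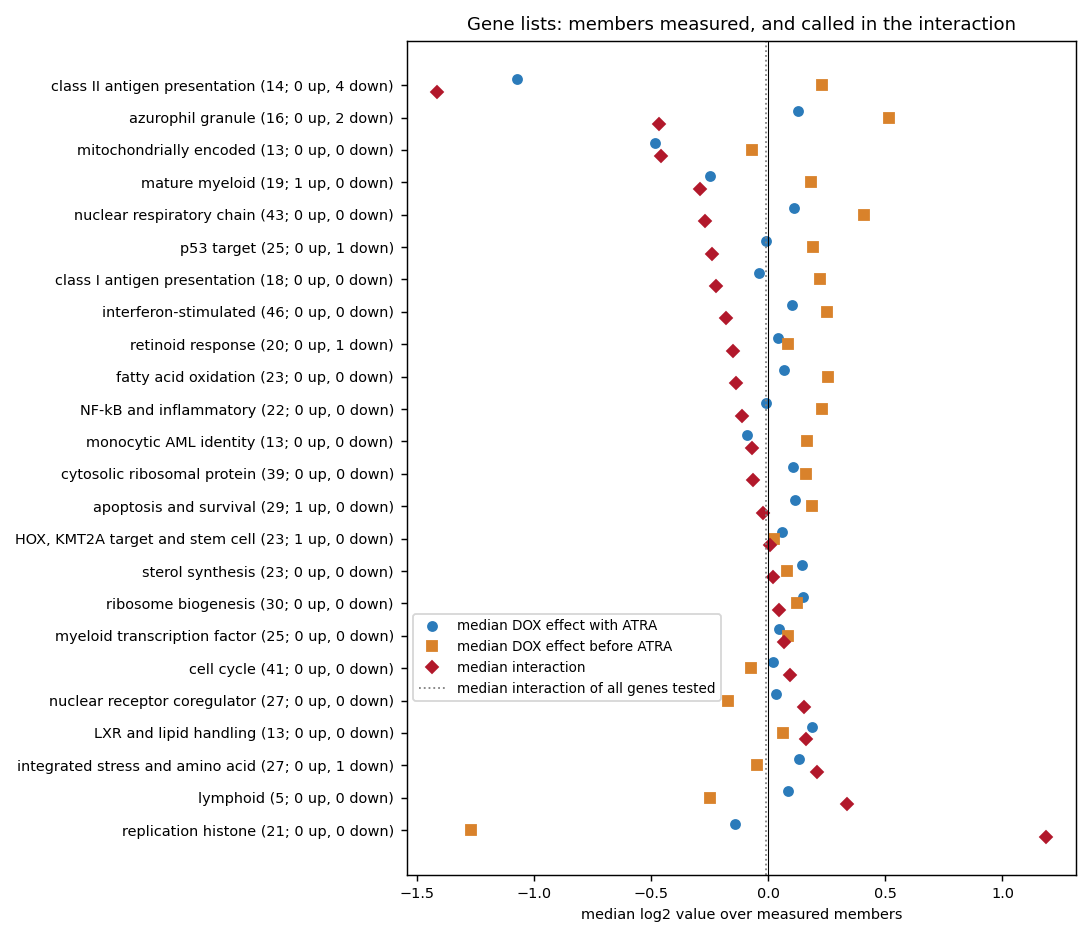
Median log2 value over the measured members of each gene list with at least 5 measured for the DOX effect with ATRA, the DOX effect before ATRA and the interaction, with the number measured and called in brackets. Class II genes lie at −1.41 and replication histone genes at 1.19 for the interaction, and the dotted line marks the median of all genes tested.

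Over the whole ATRA response the medians were nearer to 0 in cells given DOX, which is given here as a description with no test. Of 3091 genes called as raised for the ATRA effect averaged over both states, the median log2 effect was 0.44 in cells given DOX and 0.54 in cells without DOX, and for 2814 lowered genes it was −0.38 and −0.44. Among genes with an averaged effect of at least 1 in size, the medians were 1.59 with DOX and 1.87 without for 703 raised genes, and −1.16 with DOX and −1.51 without for 425 lowered genes. The 43 called genes included 32 with a lower interaction among the raised and 5 with a higher interaction among the lowered, and 1 with a higher interaction among the raised. Just outside the threshold were TGM5, FAM117A, NAGK, NCAM1-AS1 and IL13RA1, with adjusted p-values of 0.0526 to 0.0558 (edgeR quasi-likelihood) and interactions of −0.81, −0.73, −0.73, 1.14 and −0.66.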

How the data were processed

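RNA of 12 MOLM14 shRIP140 libraries was sequenced, and the authors deposited raw counts per gene, whole numbers with no normalization. Reads were processed with FastQC, STAR and HTSeq against GRCh38, per the submitters' processing notes; versions, annotation release and strand setting are not given in the sources used here. Of 61487 gene IDs, 61369 matched the table of gene names and 58312 matched GENCODE 29, whose GRCh38 positions are printed.

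Genes passing edgeR's filterByExpr (16104) were scaled by TMM and fitted with edgeR 4.0.16 (R 4.3.3, quasi-likelihood, 4 groups, all 12 libraries); p-values were adjusted by Benjamini-Hochberg over all genes tested, with a threshold of 0.05. The common biological coefficient of variation was 9.54%. Library totals differed by up to 7.21-fold, and DOX replicate 3 was the shallowest, so that genes of few counts are least precise there. The interval implied by a count of 0 covers counting error only. The standard error is the size of the log2 value over the square root of F. The replicates are biological per the labels' design text. The scripts were tested on simulated data.

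A level was said to have moved where its DOX effect was called. Named genes were NRIP1, the 15 largest interactions in each direction among called genes of at least 2 CPM on average, the 6 smallest p-values of each class and up to 4 genes per list; other called genes, and class II members beyond these, were named after their values were seen. Members and lists were chosen with earlier results of these data known. Alternatives were DESeq2 1.42.0, library size scaling, other filters, equal depth, a replicate block, a mitochondrial ribosomal RNA term, omission of libraries and, added after seeing the data, limma 3.58.1 voom with quality weights.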

Additional observations from a re-analysis of the deposited data

Results flagged for a closer look

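The ATRA effect differed between cells given DOX and cells without DOX for 43 genes, by the test of the interaction itself (edgeR quasi-likelihood, adjusted p under 0.05). In CHCHD7 and RPS27L the ATRA effect was called in opposite directions in those states, lowering with DOX and raising without, and their interactions were −0.75 and −0.80 on the log2 scale (adjusted p = 0.0103 and 0.0448). The level of both before ATRA was higher in DOX than in untreated cells.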

How the results depend on the processing

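All 903 values of the 43 genes over 21 settings kept their sign, as the reuse of the same libraries favours. On a linear CPM scale S100A9 (−3.35) and IL31RA (2.07) reversed. DESeq2 called 120 genes (27 higher, 93 lower; level moved with ATRA 51, before 55, both 9, neither 5), all 43 among them. Scaling by library size alone gave 24 (4 higher, 20 lower; 14 with, 7 before). Without a filter 189 were called (77 higher, 112 lower; 71 with, 102 before, 8 both, 8 neither), and at a mean of at least 2 CPM 9 moved before ATRA. At equal depth 15 were called (1 higher, 14 lower; 9 with, 6 before, 0 both), and the ATRA effect was called for 1908 genes with and 2760 without DOX and the DOX effect for 372 with and 1167 without ATRA. With the mitochondrial ribosomal RNA term 7 moved before ATRA, 1 both and 7 neither, and the DOX effect before ATRA was called for 77. The voom weights, added after seeing the data, gave 184 (52 higher, 132 lower; 68 with, 89 before, 25 both, 2 neither) and 1822 genes for the DOX effect with ATRA. Without untreated replicate 3 and DOX replicate 3 together 9 remained in number (2 higher, 7 lower; 7 with, 1 before, 1 both), and the DOX effect before ATRA was called for 169. Leaving out each library gave 10 to 747 called genes (1 to 414 higher, 9 to 333 lower; 6 to 88 with, 2 to 612 before, 1 to 27 both, 0 to 20 neither). It gave 2195 to 3898 genes for the ATRA effect with DOX, 3455 to 5344 without DOX, 264 to 1028 for the DOX effect with ATRA and 659 to 4326 before ATRA, and 0.43 to 0.70 for the NRIP1 interaction. The cause of these changes was not tested. With the replicate block 54 genes were called (9 higher, 45 lower), all 43 among them. Deviations from the group means correlated at −0.24 to 0.27 between same-numbered libraries. With 3 libraries per group this does not settle whether the numbers pair the samples. HLA-DRA was −1.39 with voom weights (adjusted p = 0.312) and −2.00 at equal depth (adjusted p = 0.562). Few counts before ATRA limit HLA-DRA, HLA-DRB1, HLA-DPA1, HLA-DPB1, HLA-DQA1 and HLA-DMB. The median standard error over all genes was 0.192 for the interaction, against 0.138 and 0.134 for the ATRA effect with and without DOX.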
